A study of Mus musculus with 12 samples.

Results

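The 36 genes described here carry out glycolysis or belong to the response of cells to low oxygen, and they were followed in mesenchymal cells cultured from mouse small intestine, with and without the adaptor protein MyD88, before and after bacterial lipopolysaccharide (LPS). They were taken by gene symbol from a list of 37 genes, chosen by function, and they are 36 of the 14907 genes that the deposited tables name. Slc2a3, a neuronal-type glucose transporter on the list, was not analysed here. By role they comprise 1 glucose transporter, 11 enzymes and regulators of upper glycolysis (glucose to triose phosphate), 6 enzymes of lower glycolysis (triose phosphate to pyruvate), 5 genes for the fate of lactate and pyruvate, 6 subunits and sensors of the hypoxia-inducible factors (HIF), and 7 HIF target genes outside glycolysis.

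All cells were primary intestinal mesenchymal cells of strain C57/Bl6, the fibroblast-like cells beneath the gut epithelium, expanded in culture to passage 3 and then selected by their GFP. There were 4 groups of 3 libraries, untreated and LPS-treated cells of each of the genotypes wt and MyD88ko. MyD88ko cells carried the genotype ColVIcre-MyD88F/F-RosamTmG, in which Cre under a collagen VI promoter acts in part of the mesenchyme and the mTmG reporter turns GFP on in cells where Cre has acted. The wt cells are labelled MyD88F/F-RosamTmG, a genotype that names no Cre, although the design text describes wt cells as Cre-positive. If the label holds, loss of MyD88 and presence of Cre cannot be told apart wherever the genotypes are compared. The cells of all 12 libraries went through an overnight serum starvation, and the LPS groups were then exposed to E. coli LPS at 2 µg/ml for 6 hours. The labels give no animal or culture for the replicates, so the p-values measure the spread between the 3 libraries of a group, which may be technical. Ages were not given in the labels. Untreated libraries all carry lower library codes than LPS libraries, so treatment cannot be told apart from library series wherever LPS is compared with no treatment. Within each treatment the 2 genotypes also carry separate runs of codes, so the same limit holds wherever genotypes are compared.

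Glycolysis breaks glucose down to pyruvate in the cytosol and yields ATP without oxygen. Pyruvate is either oxidised in mitochondria, which pyruvate dehydrogenase kinases hold back, or reduced to lactate, which monocarboxylate transporters carry out of the cell. HIF is a pair of proteins, an oxygen-labile alpha subunit (Hif1a or Epas1) and the stable partner Arnt. With oxygen present, prolyl hydroxylases (Egln1, Egln3) mark the alpha subunit and the Vhl protein has it destroyed. Without oxygen the pair binds a short DNA core, ACGTG or GCGTG, near many glycolysis genes and raises their transcription. In macrophages, LPS is known to raise Hif1a transcription through NF-kB and to shift metabolism toward lactate. TLR4, the LPS receptor, signals through MyD88 and, separately, through the adaptor TRIF.

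To show where that core lies in front of the genes the results turn on, the 150 bases upstream of a RefSeq transcription start (build GRCm38.p6) are printed for 5 of them, 5′ to 3′ on the gene's strand, with each match to ACGTG or GCGTG on either strand in capitals. Hif1a encodes the HIF-1 alpha subunit, P4ha2 a collagen prolyl hydroxylase subunit, Slc16a3 the lactate exporter MCT4, Pfkl the liver-type phosphofructokinase subunit and Hk2 the inducible hexokinase. The stretches lie at chr12:73907717-73907866 (plus strand), chr11:54100774-54100923 (plus strand), chr11:120948917-120949066 (plus strand), chr10:78009808-78009957 (minus strand) and chr6:82774455-82774604 (minus strand), in that order.
Hif1a: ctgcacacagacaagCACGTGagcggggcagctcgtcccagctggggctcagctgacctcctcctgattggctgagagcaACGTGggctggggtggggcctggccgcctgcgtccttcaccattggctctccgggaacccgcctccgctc
P4ha2: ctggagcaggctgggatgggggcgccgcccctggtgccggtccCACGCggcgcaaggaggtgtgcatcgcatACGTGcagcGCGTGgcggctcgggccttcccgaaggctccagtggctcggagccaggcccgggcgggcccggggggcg
Slc16a3: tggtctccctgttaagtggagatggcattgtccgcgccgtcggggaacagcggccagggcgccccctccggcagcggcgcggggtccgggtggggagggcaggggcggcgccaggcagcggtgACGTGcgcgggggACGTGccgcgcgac
Pfkl: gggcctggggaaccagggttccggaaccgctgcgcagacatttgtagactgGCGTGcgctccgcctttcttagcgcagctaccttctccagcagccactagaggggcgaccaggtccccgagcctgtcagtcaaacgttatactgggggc
Hk2: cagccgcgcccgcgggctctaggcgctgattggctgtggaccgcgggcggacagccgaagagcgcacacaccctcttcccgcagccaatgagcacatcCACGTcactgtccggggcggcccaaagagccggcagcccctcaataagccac
The Hif1a stretch held 3 matches, of which a palindrome, CACGTG, gave one on each strand. P4ha2 also had 3 matches, Slc16a3 had 2, and Pfkl and Hk2 had 1 each. Of the called genes not printed, Pgam1 and Pgk1 had 2 matches each in the same stretch and Tpi1 had 0. Aldoa had 0 or 1, depending on the start used. Windows from 250 bases before to 50 bases after a RefSeq start were found for 33 of the members, and 29 of these (87.9%) held at least 1 match, against 46.7% of all 27025 genes with such a window. Counted by window, 37 of 46 member windows (80.4%) and 43.8% of all 32851 windows held a match. The members were chosen by function, HIF targets among them, so their higher share can follow from that choice and is no result of these data. A match describes these letters only. Matches stood before genes that rose, that fell and that did not pass the test.

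Values are the authors' normalized read counts per gene, rounded to whole numbers. Each read in these 3′ mRNA libraries stands for the end of a transcript, so a value follows transcript number, and levels are compared here between libraries and not between genes. Depth, estimated from the pattern that rounding leaves among low values, was 2.5 to 5.3 megareads per library, counting only reads assigned to the listed genes. Members took 0.298% to 0.504% of a library's total. All 12 mesenchymal markers checked were listed (collagens I, III and VI, Vim, Pdgfra and others), with summed values of 60972 to 170032 per library. Of these, Acta2 was called higher and Pdgfrb lower with LPS in wt. Pdgfra was called lower in MyD88ko than in wt, both untreated and with LPS. Epithelial markers (8 of 12 listed) summed to 420, 14 and 988 in wt untreated replicates 1, 2 and 3 and to 4 to 52 in every other library. Comparisons with wt untreated cells were also computed without replicates 1 and 3. For members, calls lost and the main changes of size are given with those comparisons. Genes that are not members are given only with these libraries included. Leukocyte markers (Cd68, Csf1r, Itgam and Lyz2 listed) summed to at most 58, endothelial markers (Kdr and Tek listed) to at most 10 and mesothelial markers (Krt7 and Wt1 listed) to at most 91. Hepatocyte markers (Alb, Serpina1a and Serpina3k listed) summed to 103 to 256 in untreated and 3 to 19 in LPS libraries. Muscle and interstitial cell markers (5 of 6 listed) summed to 2142 to 2544 in untreated and 3833 to 4321 in LPS-treated wt, and to 3840 to 5346 and 4836 to 5139 in MyD88ko. Markers of glia and neurons (4 of 6 listed) summed to 529 to 854 and 1185 to 2539 in wt, and to 321 to 512 and 516 to 1397 in MyD88ko. Cnn1, Myh11, Smtn and Tubb3 of these lists were called higher with LPS in wt, Myh11 and Tubb3 also in MyD88ko, and Cnn1 was called higher in untreated MyD88ko than in untreated wt. The part of these cells in the results below was not tested. In such bulk samples, fewer cells of a type and less RNA per cell cannot be told apart. Myd88 read 99, 98 and 103 in untreated wt cells and 171, 204 and 213 after LPS. In MyD88ko cells it read 14, 8 and 10 before and 24, 22 and 5 after LPS. All 6 MyD88ko libraries thus lay below all 6 wt libraries, although a 3′ read does not test the deletion itself unless it falls in the deleted part, which the labels do not give.

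**Figure D1:**
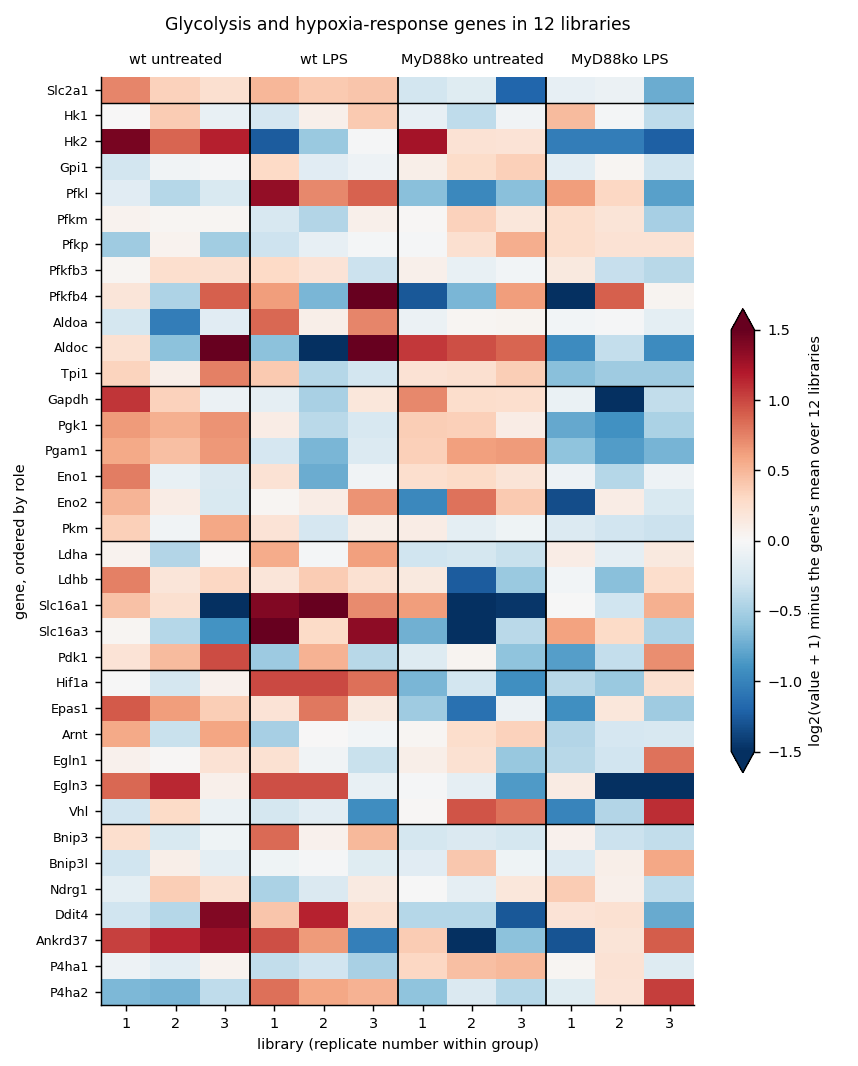
Each row is a gene, ordered by role (horizontal lines part the roles), and each column a library; colour is log2(value + 1) minus the gene's mean over the 12 libraries, with red above and blue below the mean. Hk2, Pgk1 and Pgam1 are red or near white in most untreated and blue in most LPS libraries, and Hif1a is reddest in the 3 wt LPS libraries.

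The first comparison asks how 6 hours of LPS changed these genes in wt cells. With LPS, the mRNA of the HIF alpha subunit Hif1a, the lactate exporter Slc16a3, the collagen hydroxylase subunit P4ha2 and the glycolytic enzymes Pfkl and Aldoa rose, each by 2.01 to 3.21-fold. The hexokinase Hk2 fell by 3.39-fold and the values listed under Pgam1 and Pgk1 by 1.92-fold and 1.73-fold. By limma on log2(value + 1), adjusted by Benjamini-Hochberg over all 12385 genes tested and called at an adjusted p under 0.05, 8 of 36 members passed, 5 higher and 3 lower. Among all genes tested 19.2% passed, 9.55% higher and 9.66% lower, so the share of members (22.2%) was near that of all genes. The median log2 fold change was -0.13 over members and 0.01 over all genes, and the members' median was -0.06 without wt untreated replicate 1. Groups did not overlap for 11 members (30.6%), against 34.8% of all genes. The called members thus moved in both directions within the same pathway.

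The uptake step did not pass the test. Slc2a1, the widespread glucose transporter GLUT1, read 234, 180 and 166 in untreated wt cells and 199, 185 and 188 after LPS. These libraries overlapped, and the log2 fold change was 0.00 ± 0.28 (SE, n = 3 libraries a group), with a 95% interval from -0.64 to 0.63 on the residual degrees of freedom.

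In upper glycolysis (11 members), 2 rose, 1 fell and 8 did not pass. Hk2, which traps glucose in the cell as glucose 6-phosphate (chr6:82725025-82774454 in the deposited tables), read 268, 182 and 223 in untreated wt cells and 41, 67 and 98 after LPS. Every LPS library lay below every untreated one, and the log2 fold change was -1.76 ± 0.32 (limma, adjusted p = 0.00078). Hk1, the constitutive hexokinase, read 215, 280 and 199 and then 180, 227 and 282, with overlapping groups. Pfkl (chr10:77986947-78010083), a subunit of the enzyme that commits sugar to glycolysis, read 162, 136 and 156 in untreated wt cells and 458, 303 and 339 after LPS. The lowest LPS library was well above the highest untreated one, and the log2 fold change was 1.25 ± 0.29 (limma, adjusted p = 0.00518). The muscle and platelet subunits of the same enzyme did not pass: Pfkm had a log2 fold change of -0.24 ± 0.24 and Pfkp of 0.18 ± 0.23. Pfkfb3, which makes the activator of phosphofructokinase, read 157, 183 and 182 and then 189, 178 and 123, without separation of the groups. Aldoa, the aldolase that splits the sugar (chr7:126795234-126809108), read 2207, 1290 and 2354 in untreated wt cells and 4815, 2801 and 4394 after LPS. The lowest of the LPS libraries was above the highest untreated one, with a log2 fold change of 1.05 ± 0.24 (limma, adjusted p = 0.00401). Aldoc, a brain-type aldolase, stayed at 0 to 25 in all 12 libraries, and Pfkfb4 at 2 to 27. Tpi1, which interconverts the triose phosphates, read 1003, 847 and 1352 and then 1043, 593 and 658, and its log2 fold change of -0.50 ± 0.22 did not pass (limma, adjusted p = 0.131), with values from -0.74 without wt LPS replicate 1 (adjusted p = 0.0355) to -0.31 without wt untreated replicate 3 (adjusted p = 0.406). With a GC correction it was -0.70 (adjusted p = 0.0282).

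In lower glycolysis (6 members), 0 rose, 2 fell and 4 did not pass. Pgam1, the phosphoglycerate mutase (chr19:41911871-41918664), read 1371, 1267 and 1447 in untreated wt cells and 774, 572 and 798 after LPS. The groups did not overlap, and the log2 fold change was -0.94 ± 0.19 (limma, adjusted p = 0.00183). Pgk1, the first enzyme of the pathway to make ATP (chrX:106187100-106203699), read 816, 757 and 832 and then 567, 395 and 442. Again no library of one group reached the other, with a log2 fold change of -0.79 ± 0.20 (limma, adjusted p = 0.00862). Gapdh, the dehydrogenase between triose phosphate and Pgk1's substrate, read 1659, 1005 and 744 and then 718, 564 and 889. Its groups overlapped (log2 fold change -0.59 ± 0.35, adjusted p = 0.262), and the value was -0.28 without wt untreated replicate 1. The enolase Eno1 had a log2 fold change of -0.34 ± 0.26 and the pyruvate kinase Pkm of -0.28 ± 0.20, neither passing. The neuronal enolase Eno2 stayed at 6 to 30 in all 12 libraries.

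The fall of Pgam1 and Pgk1 did not hold once near-identical copies of these genes were counted with them. Many glycolysis genes have processed pseudogenes and retrocopies, whose reads can be hard to tell from those of the parent gene. Transcripts of GENCODE M21 that matched a member at 95% identity or more over at least 200 bases, at another locus, were found for 12 members, and for 9 of these the deposited tables list at least 1 copy. Gapdh had the most: 56 of 91 copies are listed, 55 of them in all 12 libraries. Where a gene's copies are listed, they can hold more than the gene: over the 12 libraries the summed copies amounted to 250.3% of the gene's own value for Gapdh, 169.7% for Pgk1, 122.5% for Eno1 and 93.7% for Pgam1. For Bnip3l they amounted to 30.1%, for Gpi1 to 8.3%, and for Pkm, Ldha and Aldoa to at most 2.2%. No copy was found by this rule for Hk2, Pfkl, P4ha2, Hif1a or Slc16a3.

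The copies of Pgam1 and Pgk1 were higher with LPS while the values listed under the genes themselves were lower. Pgam1-ps2, a processed pseudogene of Pgam1, read 667, 573 and 693 in untreated wt cells and 1503, 1109 and 1304 after LPS. All LPS libraries lay above all untreated ones, the reverse of Pgam1 itself. Summed with its copy, Pgam1 read 2038, 1840 and 2140 and then 2277, 1681 and 2102. These sums overlapped, with a log2 fold change of 0.00 ± 0.20 (limma, adjusted p = 0.998). The Pgk1 copies (Pgk1-rs7 and Gm5537) together read 712, 779 and 932 and then 1602, 1002 and 1506, and Pgk1 summed with them had a log2 fold change of 0.17 ± 0.20 (limma, adjusted p = 0.604). The Gapdh copies together read 1399, 961 and 982 and then 4234, 2630 and 4835. Of the 39 copies of Gapdh that could be tested, 20 rose and 0 fell in wt by limma, against 9.55% and 9.66% of all genes. In MyD88ko 2 rose and 0 fell, against 2.58% and 3.40% of all genes. Being near-identical to 1 parent gene, these copies are not separate results. Gapdh summed with its copies read 3058, 1966 and 1726 in untreated wt cells and 4952, 3194 and 5724 after LPS. No LPS sum reached down to the untreated sums, and the log2 fold change was 1.04 ± 0.32 (limma, adjusted p = 0.0274), against -0.59 for Gapdh alone. Eno1 with its copies (Eno1b, Gm4735 and Gm5855) had a log2 fold change of 0.43 ± 0.25 (adjusted p = 0.240), against -0.34 alone. With members summed in this way, 7 members passed in wt, 6 higher (Gapdh added) and 1 lower (Hk2), and the median over members was 0.00. Whether reads of the parent genes were placed on their copies, and whether this differed between untreated and LPS libraries, was not tested.

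**Figure D2:**
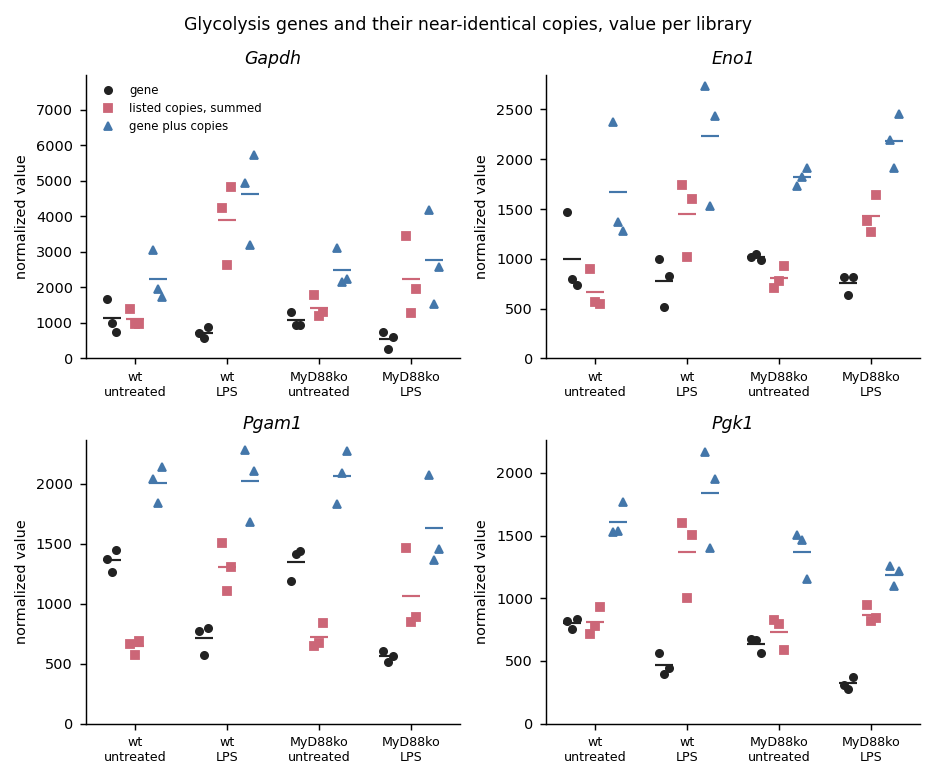
For 4 glycolysis genes, the normalized value in each library (y axis) is shown for the gene as listed (black circles), for the sum of its listed near-identical copies (red squares) and for both together (blue triangles); bars are group means of 3 libraries. In wt cells the gene's own values for Pgam1 and Pgk1 are lower with LPS while the copies are higher, and the sums for Pgam1 average 2006 untreated and 2020 with LPS.

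In the handling of lactate and pyruvate (5 members), 1 rose, 0 fell and 4 did not pass. Slc16a3 (chr11:120948480-120960868), the exporter suited to cells that make much lactate, read 96, 70 and 50 in untreated wt cells and 416, 115 and 240 after LPS. All LPS libraries lay above the untreated ones, although they spread widely, and the log2 fold change was 1.68 ± 0.44 (limma, adjusted p = 0.0116). This call rested on single libraries: without wt LPS replicate 1 the log2 fold change was 1.24 (limma, adjusted p = 0.0730), and without wt untreated replicate 3 it was 1.45 (adjusted p = 0.0552). Slc16a1, the widespread lactate transporter MCT1, read 14, 12 and 2 and then 28, 32 and 17. Its groups did not overlap, but at these low values the log2 fold change of 1.63 ± 0.71 did not pass (limma, adjusted p = 0.119). Ldha, the lactate dehydrogenase subunit that favours lactate, read 1254, 887 and 1215 and then 1776, 1177 and 1847. One LPS library fell within the untreated range, and the log2 fold change of 0.50 ± 0.21 did not pass (limma, adjusted p = 0.101), although it did without wt LPS replicate 2 (0.71, adjusted p = 0.0330). Ldhb, the heart-type subunit, and Pdk1, the kinase that keeps pyruvate out of mitochondria, had log2 fold changes of -0.15 ± 0.40 and -0.70 ± 0.38 and did not pass.

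Among the HIF subunits and oxygen sensors (6 members), 1 rose, 0 fell and 5 did not pass. Hif1a (chr12:73901375-73947530) read 596, 498 and 626 in untreated wt cells and 1191, 1193 and 1063 after LPS. The 3 LPS libraries lay close together and far above the untreated ones, with a log2 fold change of 1.01 ± 0.23 (limma, adjusted p = 0.00401). The other alpha subunit did not follow: Epas1, which encodes HIF-2 alpha, read 81, 66 and 55 and then 49, 74 and 47 (log2 fold change -0.26 ± 0.37). Arnt had a log2 fold change of -0.45 ± 0.27, Egln1 of -0.15 ± 0.29 and Vhl of -0.41 ± 0.41, none passing. Egln3, a hydroxylase that HIF itself is known to induce, read 87, 105 and 50 and then 94, 94 and 44, with nearly the same range in both groups.

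Among HIF targets outside glycolysis (7 members), 1 rose, 0 fell and 6 did not pass. P4ha2 (chr11:54100095-54131665), a catalytic subunit of the enzyme that hydroxylates collagen prolines, read 186, 183 and 228 in untreated wt cells and 526, 444 and 426 after LPS. Every LPS library was above every untreated one, and the log2 fold change was 1.22 ± 0.26 (limma, adjusted p = 0.00228). Its sister subunit P4ha1 read 521, 495 and 570 and then 427, 452 and 393. These groups also did not overlap, in the opposite direction, but the log2 fold change of -0.32 ± 0.19 did not pass (limma, adjusted p = 0.256). Bnip3, which links HIF to the removal of mitochondria, had a log2 fold change of 0.48 ± 0.23 (adjusted p = 0.154), and its relative Bnip3l of 0.03 ± 0.23. Ndrg1 and Ddit4, both stress-induced genes, had log2 fold changes of -0.34 ± 0.23 and 0.38 ± 0.43. Ankrd37 stayed at 0 to 29 in all 12 libraries.

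Leaving out wt untreated replicates 1 and 3, which held the epithelial marker reads, left 3 members called in wt, Hif1a, P4ha2 and Aldoa. The lone untreated library was then assumed to vary like the other groups, and the log2 fold change was -1.48 for Hk2 (limma, adjusted p = 0.0718), 1.40 for Pfkl (adjusted p = 0.0580) and 1.68 for Slc16a3 (adjusted p = 0.119). Pgam1 stood at -0.84 (adjusted p = 0.0712) and Pgk1 at -0.71 (adjusted p = 0.152). Aldoa moved from 1.05 to 1.59 (adjusted p = 0.00302), Ldha from 0.50 to 0.82 (adjusted p = 0.0909), Tpi1 from -0.50 to -0.19 (adjusted p = 0.771) and Egln3 from -0.08 to -0.52 (adjusted p = 0.704). In the authors' deposited table for wt, made with DESeq per the file headers, 2 members had an adjusted p under 0.05, Hk2 (0.00682) and Slc16a3 (0.00677).

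**Figure D3:**
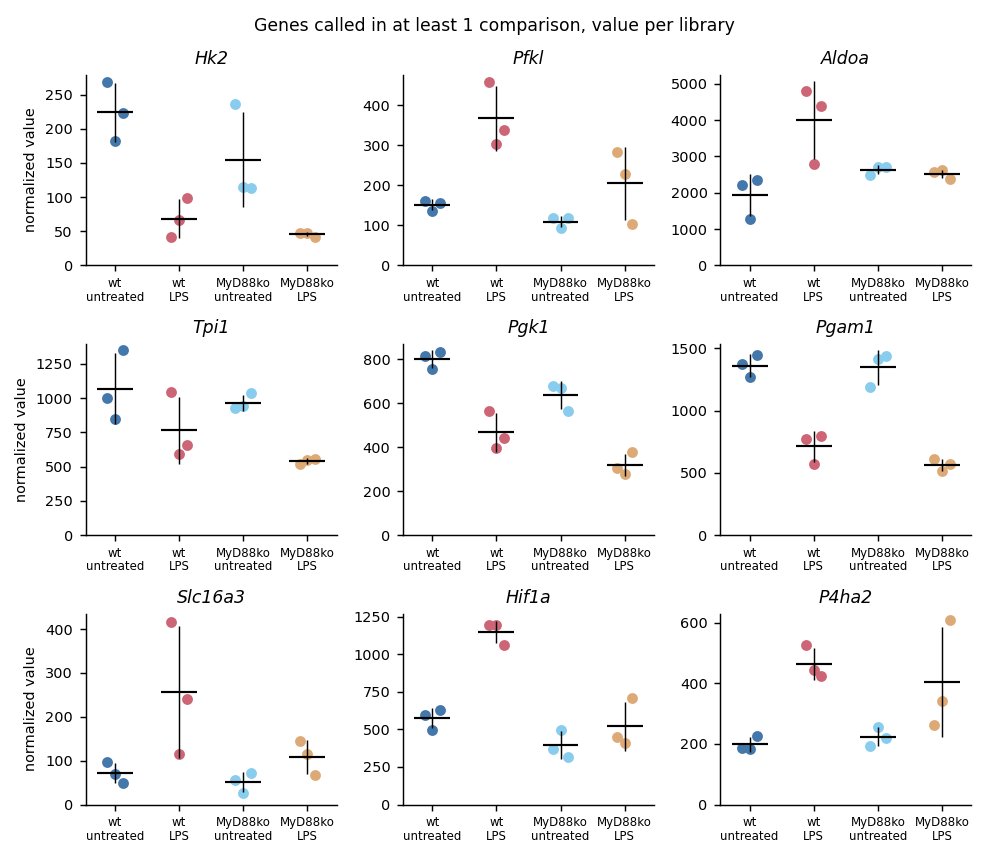
Normalized value in each library (y axis) for the 9 genes called in at least 1 comparison, by group on the x axis; horizontal bars are means and vertical bars 1 SD of 3 libraries. Hk2 is lower with LPS in both genotypes, while Hif1a with LPS reaches 1063 to 1193 in wt and 407 to 707 in MyD88ko.

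The second comparison asks what LPS did to the same genes in MyD88ko cells. Hk2 fell by 3.13-fold, Tpi1 by 1.79-fold, and the values listed under Pgam1 and Pgk1 by 2.38-fold and 1.99-fold. No member rose. By limma 4 of 36 members were called, all lower, against 5.98% of all genes (2.58% higher and 3.40% lower). The median log2 fold change was 0.00 over members and 0.00 over all genes. Without overlap between groups, 13 of 36 members differed, against 25.5% of all genes, 11 of them lower (13.3% of all genes) and 2 higher (12.2% of all genes). The 11 include Pgam1, Pgk1, Gapdh and Eno1 as listed. Summed with their copies, these had log2 fold changes of -0.36, -0.20, 0.05 and 0.26.

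Hk2 read 236, 115 and 114 in untreated MyD88ko cells and 48, 48 and 42 after LPS. Every LPS library was again below every untreated one, with a log2 fold change of -1.65 ± 0.32 (limma, adjusted p = 0.00474). Its call held under each of 25 other settings. Tpi1 (chr6:124810586-124814296) read 924, 942 and 1033 and then 516, 551 and 552. The groups lay far apart, with a log2 fold change of -0.84 ± 0.22 (limma, adjusted p = 0.0302). The Tpi1 call was lost under limma without a mean-variance trend (adjusted p = 0.0965). It was also lost in 5 of the 6 fits that left out 1 library of either group (limma, adjusted p 0.0737 to 0.113). The log2 fold change lay between -0.88 and -0.79 under all 25 alternatives, but some, such as leaving out wt libraries, cannot change it. Copies of Tpi1 stand in GENCODE but none was among those analysed here.

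Pgam1 read 1186, 1417 and 1437 in untreated MyD88ko cells and 608, 515 and 567 after LPS, a log2 fold change of -1.25 ± 0.19 (limma, adjusted p = 0.000543). Pgk1 read 678, 668 and 565 and then 307, 279 and 376, a log2 fold change of -0.99 ± 0.20 (limma, adjusted p = 0.00554). Neither gene's groups overlapped. Summed with their copies, the log2 fold changes were -0.36 ± 0.20 for Pgam1 (limma, adjusted p = 0.323) and -0.20 ± 0.20 for Pgk1 (adjusted p = 0.623), which left Hk2 and Tpi1 as the members called. Gapdh read 1310, 954 and 940 and then 740, 254 and 612. These groups did not overlap, but the log2 fold change of -1.12 ± 0.35 did not pass (limma, adjusted p = 0.0726). It was -1.42 without MyD88ko LPS replicate 1 (limma, adjusted p = 0.0305), -0.65 without MyD88ko LPS replicate 2 (adjusted p = 0.243), and 0.05 ± 0.32 when the copies were counted with the gene.

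The 5 genes that rose in wt were not called in MyD88ko. Hif1a read 372, 496 and 316 in untreated MyD88ko cells and 449, 407 and 707 after LPS, and MyD88ko with LPS replicate 3 stood above the others. The groups overlapped, with a log2 fold change of 0.38 ± 0.23 (limma, adjusted p = 0.355) and a 95% interval from -0.14 to 0.91. Without MyD88ko LPS replicate 3 the Hif1a log2 fold change was 0.14 (adjusted p = 0.778). P4ha2 read 195, 256 and 221 and then 262, 343 and 609. All LPS libraries were above the untreated ones, but the log2 fold change of 0.77 ± 0.26 did not pass (limma, adjusted p = 0.0829), and it ran from 1.03 without MyD88ko LPS replicate 1 (adjusted p = 0.0257) to 0.43 without MyD88ko LPS replicate 3 (adjusted p = 0.299). Pfkl read 118, 93 and 118 and then 283, 228 and 104, so that 2 LPS libraries were high and the third was not (log2 fold change 0.79 ± 0.29, adjusted p = 0.123). The Pfkl log2 fold change was 1.21 without MyD88ko LPS replicate 3 (limma, adjusted p = 0.00544) and 0.50 without MyD88ko LPS replicate 1 (adjusted p = 0.372). Slc16a3 read 57, 27 and 71 and then 144, 115 and 68, with overlap (log2 fold change 1.10 ± 0.44, adjusted p = 0.151). Aldoa read 2485, 2698 and 2722 and then 2559, 2614 and 2383, within nearly the same range (log2 fold change -0.07 ± 0.24, adjusted p = 0.911).

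The remaining anchors of the pathway also did not pass in MyD88ko. Slc2a1 read 116, 124 and 61 and then 129, 132 and 84, with overlap. Ldha read 980, 1004 and 952 and then 1306, 1100 and 1336, without overlap but with a log2 fold change of only 0.34 ± 0.21 (limma, adjusted p = 0.366). Pfkfb3 read 162, 142 and 149 and then 170, 121 and 115. Epas1 read 29, 19 and 40 and then 22, 48 and 29, and Egln3 read 47, 43 and 26 and then 52, 16 and 16. Both overlapped between treatments. Vhl read 190, 360 and 331 and then 94, 138 and 404, with a log2 fold change of -0.70 ± 0.41 (limma, adjusted p = 0.356) that was -1.31 without MyD88ko LPS replicate 3 (adjusted p = 0.0160). That library was the highest of its group for Vhl, Hif1a, P4ha2, Egln1 and Pdk1 and the lowest for Pfkl and Slc16a3. By role, the members called lower were 2 of 11 in upper glycolysis and 2 of 6 in lower glycolysis. In the authors' deposited table for MyD88ko, 1 member had an adjusted p under 0.05, Hk2 (0.0298).

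**Figure D4:**
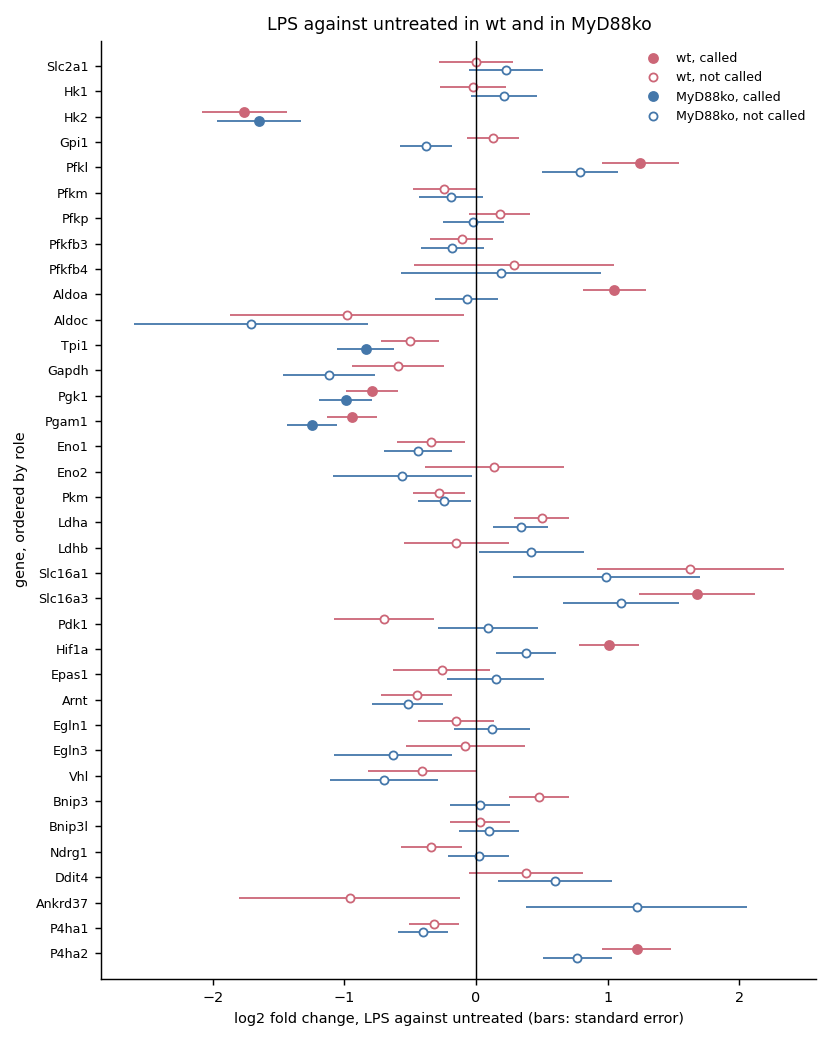
Log2 fold change of LPS against untreated (x axis, bars 1 SE) for each gene (y axis, by role), in wt (red) and MyD88ko (blue); filled points passed at an adjusted p under 0.05. Hk2, Pgk1 and Pgam1 are filled and negative in both genotypes, and Pfkl, Aldoa, Slc16a3, Hif1a and P4ha2 are filled in wt and open in MyD88ko.

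Whether the LPS response itself differed between genotypes was tested as an interaction, the MyD88ko response minus the wt response. No member was called by limma, where 0.0161% of all genes were called, 0.00807% in each direction, and 1 member (2.78%, against 9.18% of all genes) had an unadjusted p under 0.05. That member was Aldoa, whose response was lower in MyD88ko by a log2 difference of -1.11 ± 0.34 (limma, adjusted p = 0.324, 95% interval from -1.89 to -0.34). For Hif1a the difference was -0.62 ± 0.32 (adjusted p = 0.565), with an interval from -1.37 to 0.12. For Hk2 it was 0.12 ± 0.46, and its interval from -0.94 to 1.17 leaves differences within those bounds possible. For P4ha2, Pfkl and Slc16a3 the differences were -0.45 ± 0.36, -0.47 ± 0.42 and -0.58 ± 0.62, none called. Without MyD88ko LPS replicate 3 the difference was -0.79 for P4ha2, -0.04 for Pfkl and -0.28 for Slc16a3. Without wt untreated replicates 1 and 3 it was -1.66 for Aldoa, -0.82 for Hif1a, -0.17 for Hk2 and -0.57 for P4ha2. In that fit Egln3 moved from -0.56 to -0.11, and the median over members from -0.13 to -0.29. The 5 genes called higher in wt but not in MyD88ko are therefore not shown to respond differently.

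The third comparison asks whether the genotypes differed before LPS. None of the 36 members was called by limma, against 1.88% of all genes (0.791% higher and 1.09% lower in MyD88ko). At an unadjusted p under 0.05 there were 10 members (27.8%), against 15.5% of all genes. The median log2 difference, MyD88ko minus wt, was -0.19 over members and 0.00 over all genes, and 26 of 36 members were negative. Without wt untreated replicates 1 and 3 the median over members was -0.03 (-0.01 over all genes). Groups did not overlap for 12 members, against 20.4% of all genes, with 9 lower in MyD88ko (9.89% of all genes) and 3 higher (10.5% of all genes). Since members of one pathway are not replicates, these shares describe the list.

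The member with the smallest adjusted p was the glucose transporter Slc2a1. It read 234, 180 and 166 in untreated wt cells and 116, 124 and 61 in untreated MyD88ko cells, with every MyD88ko library below every wt one. The log2 difference was -0.99 ± 0.28 (limma, adjusted p = 0.0734). Without MyD88ko LPS replicate 3, which enters only through the shared spread, the adjusted p was 0.0421, and without wt untreated replicates 1 and 3 the log2 difference was -0.90 (adjusted p = 0.619). Epas1 read 81, 66 and 55 in wt and 29, 19 and 40 in MyD88ko. Its groups did not overlap either, with a log2 difference of -1.21 ± 0.37 (limma, adjusted p = 0.105). Hif1a read 596, 498 and 626 in wt and 372, 496 and 316 in MyD88ko, where the nearest libraries of both groups were only just apart (log2 difference -0.56 ± 0.23, adjusted p = 0.235). Without wt untreated replicates 1 and 3 the Hif1a difference was -0.36 (limma, adjusted p = 0.909). Egln3 read 87, 105 and 50 in wt and 47, 43 and 26 in MyD88ko (log2 difference -1.02 ± 0.45, adjusted p = 0.273, and -1.46 without those wt libraries, adjusted p = 0.612). P4ha1 went the other way, from 521, 495 and 570 in wt to 683, 755 and 770 in MyD88ko. Its groups lay well apart, but the log2 difference of 0.48 ± 0.19 did not pass (limma, adjusted p = 0.208). Among enzymes, Hk2 differed by -0.60 ± 0.32, Gapdh by -0.03 ± 0.35, Ldha by -0.18 ± 0.21 and Pfkfb3 by -0.20 ± 0.24 on the log2 scale, and none passed. Without those wt libraries Hk2 differed by -0.32 (limma, adjusted p = 0.953) and Aldoa moved from 0.48 to 1.03 (adjusted p = 0.237).

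The fourth comparison sets the genotypes side by side after LPS. Hif1a was 2.27-fold lower in MyD88ko, and it was the only one of the 36 members called by limma, against 1.49% of all genes (1.04% lower). It read 1191, 1193 and 1063 in LPS-treated wt cells and 449, 407 and 707 in LPS-treated MyD88ko cells. Even the highest MyD88ko library was far below the lowest wt one, and the log2 difference was -1.18 ± 0.23 (limma, adjusted p = 0.00755). The call was lost under limma without a mean-variance trend (adjusted p = 0.0677), which changes only the estimate of spread. It was also lost without wt LPS replicate 1 (limma, adjusted p = 0.0507) and without MyD88ko LPS replicate 2 (adjusted p = 0.0637). In these 2 fits the log2 difference was -1.15 and -1.02. Between the untreated cells of the same genotypes the Hif1a log2 difference of -0.56 did not pass (limma, adjusted p = 0.235).

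The other members were mostly lower in MyD88ko with LPS but did not pass. The median log2 difference was -0.33 over members and 0.00 over all genes, 28 of 36 members were negative, and 10 (27.8%) had an unadjusted p under 0.05, against 1486 of the 12385 genes tested. Groups did not overlap for 11 members, against 15.8% of all genes, with 9 lower in MyD88ko (8.31% of all genes) and 2 higher (7.54% of all genes). Egln3 read 94, 94 and 44 in wt and 52, 16 and 16 in MyD88ko. The lowest wt library lay below the highest MyD88ko one, and the log2 difference of -1.58 ± 0.45 did not pass (limma, adjusted p = 0.0954), whereas without MyD88ko LPS replicate 1 it was -2.12 (adjusted p = 0.0113). Pfkl read 458, 303 and 339 in wt and 283, 228 and 104 in MyD88ko, without overlap (log2 difference -0.93 ± 0.29, adjusted p = 0.153). The Pfkl difference ran from -1.22 without MyD88ko LPS replicate 1 (limma, adjusted p = 0.0447) to -0.51 without MyD88ko LPS replicate 3 (adjusted p = 0.448). Slc2a1 read 199, 185 and 188 in wt and 129, 132 and 84 in MyD88ko. Here too no library of one genotype reached the other, and the log2 difference was -0.75 ± 0.28 (limma, adjusted p = 0.243). Aldoa differed by -0.63 ± 0.24 (adjusted p = 0.255), Bnip3 by -0.68 ± 0.23 (adjusted p = 0.190) and Slc16a3 by -1.11 ± 0.44 (adjusted p = 0.294) on the log2 scale, where Slc16a3 was -0.67 without wt LPS replicate 1. Hk2, low in both genotypes after LPS, differed by -0.48 ± 0.32 (adjusted p = 0.594). The mesenchymal marker sums also differed between genotypes, at 102176 to 144390 in LPS-treated wt and 166376 to 170032 in LPS-treated MyD88ko libraries. Of these 12 markers, 9 were higher and 3 lower in MyD88ko with LPS. The only one called was Pdgfra, which was lower (log2 difference -1.77). The part of these markers in the differences above was not tested. In the authors' deposited tables no member had an adjusted p under 0.05 between genotypes, untreated or with LPS.

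**Figure D5:**
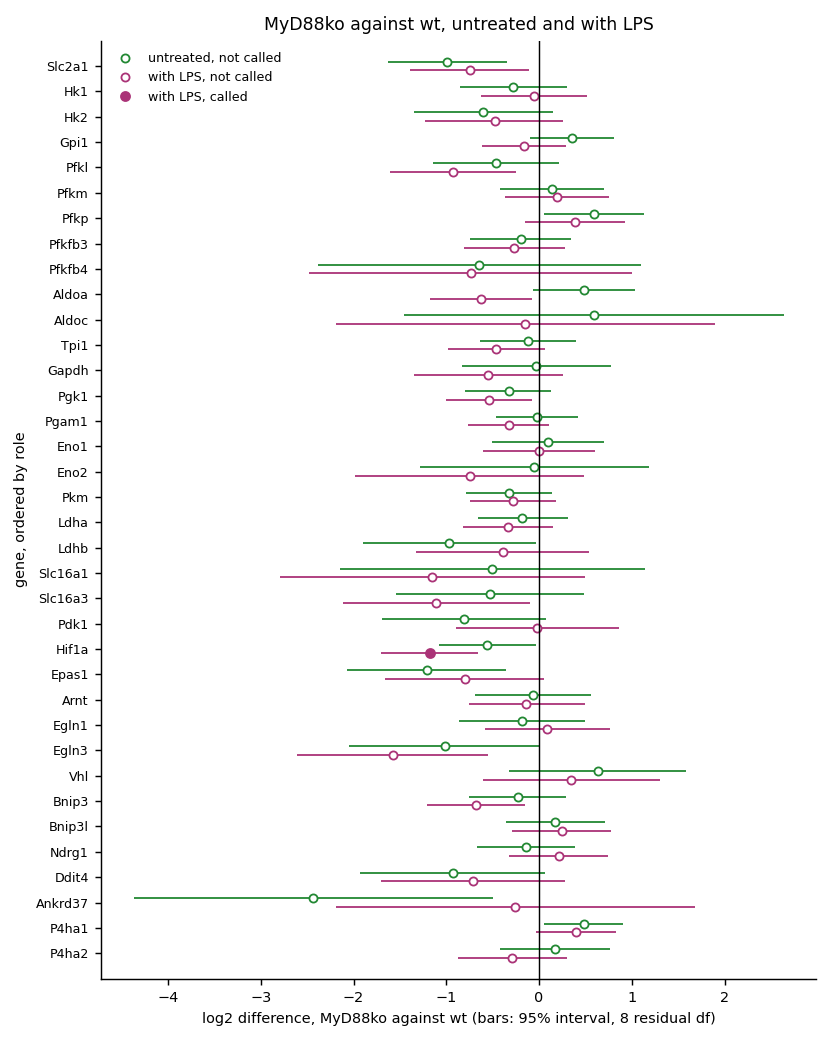
Log2 difference between MyD88ko and wt (x axis, bars are 95% intervals on 8 residual degrees of freedom) for each gene (y axis, by role), untreated (green) and with LPS (purple); a filled point passed at an adjusted p under 0.05. Hif1a with LPS, at -1.18, is the only filled point, and most points lie left of 0.

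Genes around these pathways that are not members were counted from lists set up in the same way. For each list below, the shares of all genes tested are the measure. With LPS, 9.55% of all genes rose and 9.66% fell in wt, and 2.58% rose and 3.40% fell in MyD88ko. Of 27 tested further genes of glycolysis and pyruvate, 1 rose and 2 fell in wt with LPS. Pdk2, another pyruvate dehydrogenase kinase, rose (log2 fold change 1.49 ± 0.41, limma, adjusted p = 0.0150). Me1, the cytosolic malic enzyme, fell from 982, 1153 and 1204 to 535, 540 and 503 (log2 fold change -1.08 ± 0.18, limma, adjusted p = 0.000319), and Pdhx fell as well. In MyD88ko 0 rose and 1 fell, Bpgm (log2 fold change -1.16 ± 0.32, limma, adjusted p = 0.0339).

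Of 48 tested further hypoxia-response genes, 6 rose and 5 fell in wt with LPS, and 1 rose and 3 fell in MyD88ko. Stc1 and Stc2 are among the 5 that fell in wt. For Stc2, the untreated wt libraries that were highest also held the epithelial marker reads. Hmox1, the heme oxygenase, rose in both genotypes, by log2 fold changes of 1.65 ± 0.23 in wt (limma, adjusted p = 5.86e-05) and 1.12 ± 0.23 in MyD88ko (adjusted p = 0.00610). Egln2, the HIF prolyl hydroxylase that is not a member, read 919, 913 and 951 in untreated wt cells and 455, 351 and 423 after LPS. It fell in both genotypes without overlap, by log2 fold changes of -1.19 ± 0.20 in wt (limma, adjusted p = 0.000345) and -0.95 ± 0.20 in MyD88ko (adjusted p = 0.00694). Its relatives Egln1 and Egln3 among the members were not called in either genotype. Higd1a, a mitochondrial protein, fell in wt by a log2 fold change of -1.19 ± 0.21 (limma, adjusted p = 0.000518). Between genotypes, 2 of the 48 were lower in untreated MyD88ko, against 1.09% of all genes. These were Stc1 and Stc2, which encode stanniocalcins. Stc2 read 1564, 121 and 652 in wt untreated, highest in the replicates 1 and 3 that also held the epithelial marker reads, and 48, 34 and 45 in untreated MyD88ko cells. With LPS, 1 of the 48 was lower in MyD88ko, Arnt2 (log2 difference -2.63 ± 0.62, limma, adjusted p = 0.0352), against 1.04% of all genes.

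Of 12 genes in the pentose phosphate and serine branches, which draw sugar out of glycolysis, 3 rose and 0 fell in wt with LPS. Pgls, the second enzyme of the pentose phosphate pathway, read 564, 532 and 1450 in untreated wt cells and 2276, 1927 and 2755 after LPS (log2 fold change 1.60 ± 0.30, limma, adjusted p = 0.000980). Tkt, the transketolase that links this pathway back to glycolysis, rose in both genotypes, by log2 fold changes of 1.31 ± 0.29 in wt (limma, adjusted p = 0.00391) and 1.30 ± 0.29 in MyD88ko (adjusted p = 0.0118). Psat1 of serine synthesis rose in wt by 0.63 ± 0.22 on the log2 scale (adjusted p = 0.0466). In MyD88ko 1 of the 12 rose, Tkt, and 0 fell.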

How the data were processed

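TopHat2, Bowtie2, DESeq and the build mm10 are named in the submitters' processing notes, with no version or role. The deposited expression values are scores: read counts per gene that the file headers call normalized, and that are whole numbers. Deposited alongside are the GC content of each gene as a fraction and the authors' DESeq p-value and adjusted p-value. Values shared between the 4 tables did not differ (0 of 166719). From these, log2(value + 1) was fitted with limma 3.58.1 in R 4.3.3 (trend, robust, 1 fit of 12 samples, 4 group coefficients, 8 residual degrees of freedom). A gene was tested if every sample had a value and some group's mean reached 10; all 36 members passed. Values were normalized, not raw, so no count model was used. Copies were found with blastn 2.17.0 on GENCODE M21, where 30 of 36 members have the tables' coordinates. Members and lists were chosen with earlier results of these data known. Named were members called in any comparison, 8 members standing for main steps whether called or not, and up to 4 genes per other list and comparison. Members named beyond this rule, and the copies, were chosen after their values were seen. The fit was tested on simulated data.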

Additional observations from a re-analysis of the deposited data

How the results depend on the processing

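Each of the 5 comparisons was recomputed under other normalizations, filters, pseudocounts, a fold threshold, a GC correction and with libraries left out. Calls of Hif1a, P4ha2 and Aldoa in wt and of Hk2 in MyD88ko held under all 25 alternatives. Some alternatives, such as leaving out a library of a group not compared, cannot change the log2 fold change and act through the shared spread. Leaving out single replicates gave 7 to 9 members called for LPS in wt, 3 to 6 for LPS in MyD88ko, 0 to 1 between untreated genotypes, 0 to 3 between genotypes with LPS, and 0 to 0 for the difference of responses. Leaving out both wt untreated replicates 1 and 3 left 3 called in wt; fewer samples also weaken the test. Members summed with their copies, an alternative added after the data were seen, gave log2 fold changes in wt of 0.17 for Pgk1 and 0 for Pgam1, and 2 calls in MyD88ko. Limma without trend left 0 members called between genotypes with LPS. The share of all genes called under each alternative, or by the authors, is not given here. Whether members gained or lost calls more than other genes did was therefore not tested.

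Deviations of same-numbered replicates correlated at -0.114 to 0.171 over 18 pairs. Between wt untreated and wt LPS, same-numbered pairs gave 0.058 to 0.171 and differently numbered pairs -0.104 to 0.043. Between other groups, differently numbered pairs reached 0.162. The labels do not say what the numbers mark, so they were not taken as pairs, and whether wt replicates were paired was not settled. With the replicate block, alone or with the GC correction, 1 member was called between untreated genotypes (Slc2a1) and 2 with LPS (Hif1a and Egln3). In MyD88ko 5 were called, Gapdh added. Fitting only the groups compared gives no value for the difference of responses. Depth limits genes such as Slc16a1 and Ankrd37, whose values were at most 32.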
